A study of Homo sapiens with 6 samples.

Results

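The 36 genes described here encode aminoacyl-tRNA synthetases, the enzymes that join each amino acid to its transfer RNA before translation. They were taken from a named list, 20 as cytosolic and 16 as mitochondrial enzymes, out of 19974 protein-coding genes with an annotated position. GARS1 and KARS1, which serve both compartments from 1 gene, were counted as cytosolic. All 36 were among the 18606 genes that passed the filter on covered DNA and were tested.

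The cytosolic enzymes supply translation of nuclear messages, and several of them are held together with scaffold proteins in the multisynthetase complex. The mitochondrial enzymes are nuclear genes whose products charge the transfer RNAs of the organelle. When amino acids run short or the secretory pathway is strained, cells make more of the transcription factor ATF4, and many cytosolic synthetase genes are among its usual textbook targets, while most mitochondrial ones are not. It binds DNA as a dimer, often with a C/EBP protein, at a composite site called the C/EBP-ATF response element.

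Open chromatin was mapped with ATAC-seq, which cuts and tags accessible DNA with the Tn5 transposase, in KMS-11, an established line from a plasma cell myeloma. The 3 knockdown libraries carry the treatment label LentiV2_ATF4g3 and the 3 control libraries the treatment label LentiV2. All 6 share the vector name and the genotype label WT, and the replicates are labelled as biological. Every knockdown library bears the same guide label, and the labels do not say how that guide acts. Peak lists hold no transcript or protein level, so neither the loss of ATF4 nor the output of a synthetase gene was measured here.

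The lists held 220250 to 222779 summits in knockdown libraries and 225832 to 238246 in control libraries. The background pileup, the number of tags the peak caller takes as its library-wide rate, was 2.15 to 2.51 in knockdown libraries and 2.79 to 3.52 in control libraries. Depth therefore moved with the groups and the 2 cannot be told apart in values that rise with depth, such as peak scores. Listed peaks covered 62.98 to 63.88 Mb in knockdown libraries and 67.04 to 70.70 Mb in control libraries, and covered lengths below are scaled by these totals. Of 7 plasma cell markers with a mapped start, 6 had in all 6 libraries a start peak whose −log10 q reached 10, JCHAIN being the exception. None of 3 myeloid markers had a start peak in any library, nor did CD3D and NKG7 of 3 T and NK cell markers. The other one, the T cell gene CD8A, had a start peak in all 6, with a −log10 q of 101.59 to 119.07 in knockdown libraries and 190.80 to 243.04 in control libraries. The epithelial marker KRT8 and the stromal marker PDGFRB had weaker start peaks or none, whose −log10 q reached 3.48 in knockdown libraries and 9.42 in control libraries.

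The exact C/EBP-ATF element was found in promoters of cytosolic genes and in none of the mitochondrial ones. RefSeq promoter sequences on GRCh38.p14, from 250 bases before to 50 bases after a start, were at hand for 30 of the 36 genes, 16 cytosolic and 14 mitochondrial. The letters TGATGCAA, searched on both strands, stood in 6 of the 16 cytosolic promoters (37.5%) and in 0 of the 14 mitochondrial ones. The same letters were found for 143 of 15812 protein-coding genes in the table (0.9%). With any base at the sixth position (TGATGNAA, which includes TGATGCAA) the counts were 7 of 16 cytosolic and 1 of 14 mitochondrial genes, against 3.6% of all genes. The 30 bases around each of these 8 sites are shown because ATF4 is known to bind this element in synthetase promoters. They are written 5′ to 3′ on the strand of the gene, and capitals mark the element, which reads TTGCATCA when it lies on the opposite strand.
AARS1, chr16:70289675-70289704, minus strand: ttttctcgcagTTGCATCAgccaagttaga
CARS1, chr11:3057407-3057436, minus strand: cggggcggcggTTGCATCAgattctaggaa
GARS1, chr7:30594834-30594863, plus strand: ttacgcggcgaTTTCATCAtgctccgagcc
IARS1, chr9:92293692-92293721, minus strand: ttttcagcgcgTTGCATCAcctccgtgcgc
MARS1, chr12:57488053-57488082, plus strand: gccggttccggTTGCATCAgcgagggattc
NARS1, chr18:57621804-57621833, minus strand: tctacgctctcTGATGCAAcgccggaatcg
TARS1, chr5:33440956-33440985, plus strand: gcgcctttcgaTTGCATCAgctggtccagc
YARS2, chr12:32756076-32756105, minus strand: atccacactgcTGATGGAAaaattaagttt

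These genes load alanine (AARS1), cysteine (CARS1), glycine (GARS1), isoleucine (IARS1), methionine (MARS1), asparagine (NARS1) and threonine (TARS1) in the cytosol, and tyrosine in mitochondria (YARS2). The GARS1 and YARS2 sites match only the looser letters. In 5 of the genes the element overlapped or nearly touched the start, its first base lying at −13 in IARS1, −4 in MARS1, −2 in CARS1, 2 in TARS1 and 14 in NARS1, counted from the start base. In GARS1 it began at −33, and in AARS1 and YARS2 it lay farther upstream, at −187 and −197. The 6 exact sites all fell among the 12 synthetase genes usually listed as ATF4 targets, 10 of which had a promoter sequence, and none among the 6 other cytosolic genes with one. Among 11 other ATF4 target genes with a promoter sequence only CHAC1, which degrades glutathione, held the exact letters. None was found among the 15 tRNA-linked partner genes or the 8 elongation factor genes with a sequence.

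Every one of the 8 elements lay inside a listed peak in all 6 libraries. The distance from the element to the summit was shortest in GARS1, 14 to 39 bp over the 6 libraries, and longest in AARS1, 140 to 162 bp. It was 19 to 84 bp in NARS1, 59 to 94 bp in CARS1, 66 to 86 bp in MARS1, 69 to 111 bp in IARS1, 106 to 133 bp in TARS1 and 134 to 148 bp in YARS2. The peaks over the elements thus cannot be set apart from peaks over starts in general.

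**Figure D1:**
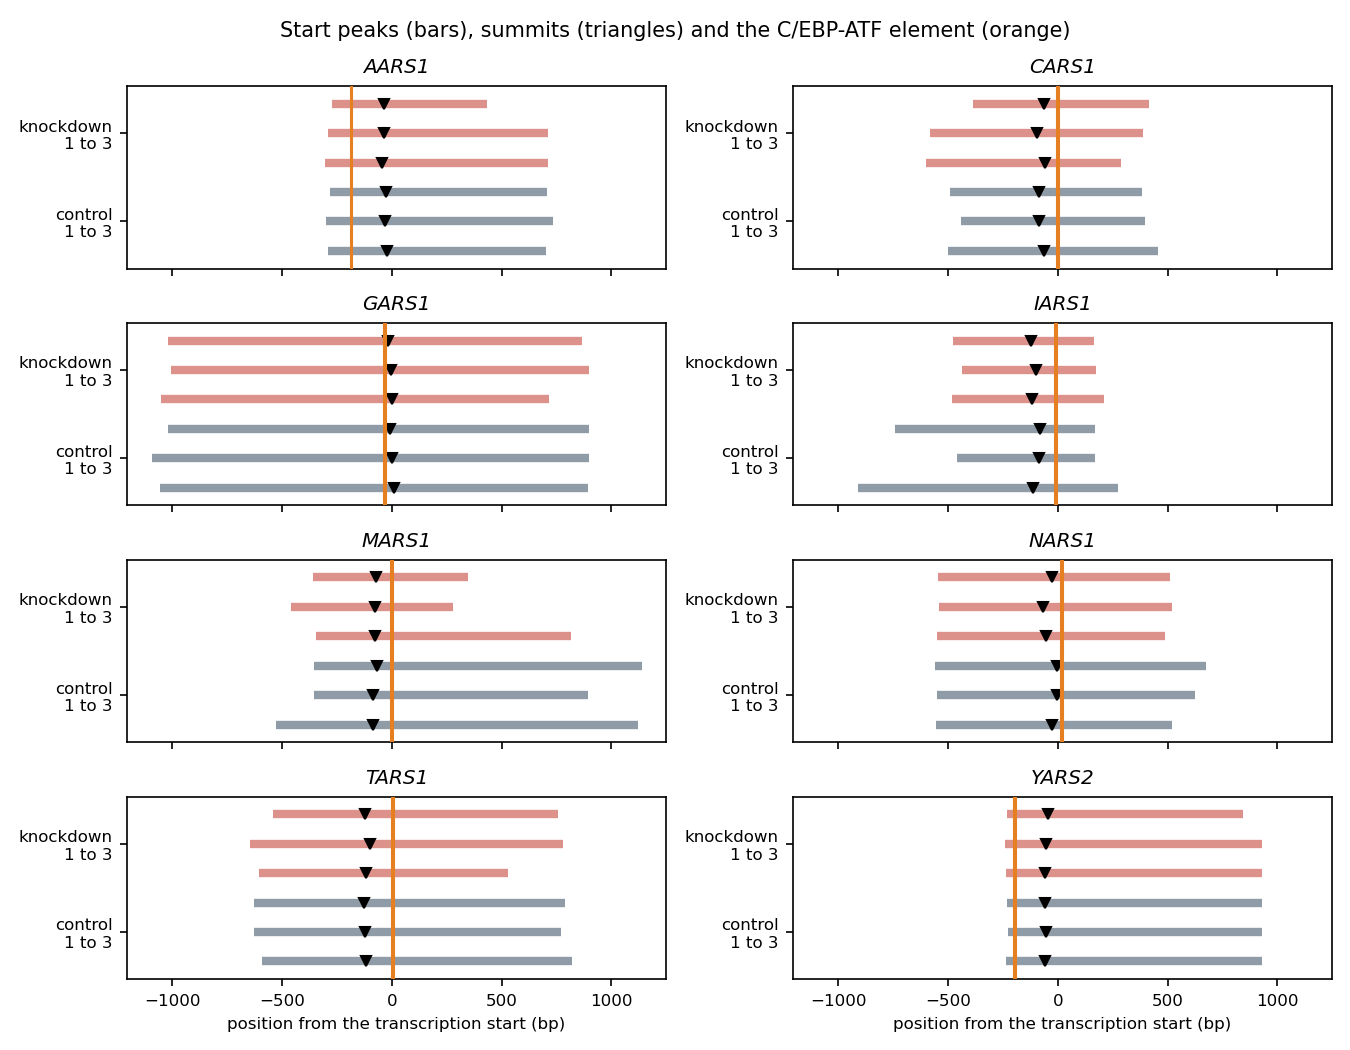
Start peaks of the 8 genes whose promoter holds the C/EBP-ATF element, by position from the transcription start in bp, with 3 knockdown libraries above 3 control libraries in each panel. Bars are the peaks as listed, triangles their summits and the orange line the element. The line crosses a peak in all 6 libraries of every gene, which the search within promoters made likely. In MARS1 the control bars reach farther into the gene than the knockdown bars.

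The AARS1 promoter is shown in full upstream of the start because its element lies away from the start, with the element in capitals. The MARS2 promoter is shown beside it as the mitochondrial gene with the lowest difference in covered DNA. It holds none of the C/EBP-ATF letters, and its capitals mark 2 matches to the motif of the nuclear respiratory factor NRF1, with 1 inner base left free, and an E-box, CACGTG.
AARS1, chr16:70289507-70289756, minus strand: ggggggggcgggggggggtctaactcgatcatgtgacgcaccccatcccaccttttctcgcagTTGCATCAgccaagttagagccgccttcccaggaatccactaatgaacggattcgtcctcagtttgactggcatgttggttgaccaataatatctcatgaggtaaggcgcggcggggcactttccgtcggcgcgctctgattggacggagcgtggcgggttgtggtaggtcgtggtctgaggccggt
MARS2, chr2:197705119-197705368, plus strand: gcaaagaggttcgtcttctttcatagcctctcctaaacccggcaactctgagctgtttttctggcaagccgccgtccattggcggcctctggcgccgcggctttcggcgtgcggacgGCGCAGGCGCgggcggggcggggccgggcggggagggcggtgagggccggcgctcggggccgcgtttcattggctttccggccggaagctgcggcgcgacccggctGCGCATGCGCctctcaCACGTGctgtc

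The NRF1 motif, on either strand, stood in 3 of 16 cytosolic promoters (18.75%), 3 of 14 mitochondrial promoters (21.43%) and 9.68% of all genes of the table. The E-box stood in 1 of 16, 3 of 14 and 10.9%. The ETS letters CCGGAAGT stood in 5 of 16 cytosolic promoters (31.25%), 3 of 14 mitochondrial promoters (21.43%) and 6.98% of all genes. The cAMP response element TGACGTCA was found in none of the 30 promoters, against 3.0% of all genes, and 2 forms of the NF-kB motif in none either, against 0.24% and 0.12%. HARS1 and HARS2, the histidine enzymes of the cytosol and the mitochondrion, have starts 85 bp apart on opposite strands, and the 84 bases between them carry 2 ETS matches, in capitals, read on the strand of HARS1.
HARS1, chr5:140691371-140691454, minus strand: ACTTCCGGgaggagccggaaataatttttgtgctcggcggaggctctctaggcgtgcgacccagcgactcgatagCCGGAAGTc

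Start regions of the synthetase genes stayed open in every library of both groups, as did most mapped starts. All 30 genes with a mapped start had a peak over it (over the strongest, where a gene has several starts) in all 6 libraries, with a −log10 q, as the authors' peak caller gave it, of 36.26 (FARSA, in a knockdown library) to 677.79 (TARS2, in a control library). Such a start peak in all 6 libraries was also found for 10550 of the 15812 protein-coding genes with a promoter sequence. A region over a gene end was found in all 6 libraries for 35 of the 36 genes, and the share of all genes is not given here. FARS2, the mitochondrial phenylalanine enzyme, was the exception by annotation, since its mapped starts lie inside the gene, beyond the 10 kb around its annotated end. Its start peak had pileups of 132, 148 and 169 tags in knockdown libraries and 215, 191 and 271 in control libraries.

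The start peaks were weaker in knockdown libraries, as start peaks were generally. For all 30 genes each knockdown library had a lower −log10 q than each control library, as had 90.4% of 10550 protein-coding genes with a start peak in all 6 libraries. Divided by the background pileup of its library, the start pileup in knockdown libraries was a median of 0.68 times that in controls over the 16 cytosolic genes and 0.682 times over the 14 mitochondrial genes. Over the 10550 genes the median was 0.737 times, with an interquartile range of 0.667 to 0.817. The lowest ratios were those of CARS1 (0.586) and IARS1 (0.588), and the highest those of FARS2 (0.887) and CARS2 (0.859). CARS1 lay at the 6.88th percentile of all genes, so its ratio was among the lower ones and inside their range.

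CARS1, which charges cysteine, had start pileups of 92, 96 and 126 tags in knockdown libraries and 235, 257 and 206 in control libraries. Its rank by −log10 q among all start peaks averaged the 61.5th percentile in knockdown libraries and the 71.7th in control libraries. IARS1, which charges isoleucine within the multisynthetase complex, had 178, 185 and 225 tags in knockdown libraries and 424, 430 and 466 in control libraries. Its rank averaged the 86.9th percentile in knockdown libraries and the 94.1st in control libraries. In both genes every knockdown library had fewer tags than every control library. By −log10 q the same order held for all 30 genes and for 90.4% of genes with a start peak. The ranks of IARS1 did not overlap between the groups, while the highest knockdown rank of CARS1 (65.1) lay just above its lowest control rank (64.7).

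MARS1 and WARS1 ranked higher in knockdown libraries by fold enrichment. MARS1, which charges methionine including that of the initiator, had folds of 18.54, 17.48 and 18.36 at its start in knockdown libraries and 16.76, 16.11 and 13.59 in control libraries. Its fold rank averaged the 95.0th percentile in knockdown libraries and the 75.2nd in control libraries. WARS1, the interferon-inducible tryptophan enzyme, averaged the 82.6th percentile in knockdown libraries and the 64.9th in control libraries. By fold, the rank was higher in knockdown libraries for 12 of 16 cytosolic genes, 8 of 14 mitochondrial genes and 55.1% of all genes. By −log10 q the rank of MARS1 averaged 91.4 in knockdown libraries and 86.0 in control libraries, and the rank was higher in knockdown libraries for 6 of 16 cytosolic genes, 3 of 14 mitochondrial genes and 48.1% of all genes.

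Across whole gene neighbourhoods, covered DNA near most cytosolic synthetase genes was slightly lower in knockdown cells when all listed peaks were counted, and near mitochondrial ones it went both ways. The measure was the number of bases under listed peaks within 10 kb of either end of a gene, scaled by the library's total, and differences are log2 of the scaled bases plus 200 bp, knockdown minus control. The median difference was −0.10 over the 20 cytosolic genes, with 18 of 20 below 0. It was −0.03 over the 16 mitochondrial genes, with 9 of 16 below 0, and −0.02 over all genes tested, 54.9% of which were below 0. The direction turned when low-scoring peaks were left out: from a −log10 q of 2 upward the cytosolic median was 0.01 against 0.08 for all genes, and from 5 upward it was 0.16 against 0.19. In a bulk sample, fewer cells with an open site and less opening per cell cannot be told apart.

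No synthetase gene passed the adjusted threshold when all listed peaks in 10 kb windows were scaled and counted. With limma and Benjamini-Hochberg adjustment over 18606 genes, 0 genes had an adjusted p under 0.05 (0.0%), and fitting limma without its trend and robust settings called 76 genes and none of the 36. Other settings did call some of the 36, and genes outside the family with them. LARS1 was lower with 50 kb windows (adjusted p 0.0289, limma). LARS1 and MARS1 were lower without scaling (adjusted p 0.0399 and 0.0435, limma), where the median of all genes was −0.14. With a −log10 q of at least 5, 12 of the 36 were higher, where that median was 0.19. Call counts over all genes at these settings are given in the last section. At an unadjusted limma p under 0.05, 5 of 20 cytosolic genes were lower and 0 higher, and 1 of 16 mitochondrial genes was lower and 3 higher. Over all genes tested, 9.08% were lower and 4.89% higher at that p. The 3 knockdown values all lay below the 3 control values for 6 cytosolic and 3 mitochondrial genes, against 11.9% of all genes, and all above for 0 cytosolic and 5 mitochondrial genes, against 7.69%. With peaks of a −log10 q under 5 left out, CARS1 (0.02), SARS1 (0.04), IARS1 (0.08), MARS1 (0.09), GARS1 (0.22) and MARS2 (0.03) lay above 0. On simulated data of this size limma recovered 81.5% of genes changed by 1 log2 unit and 0.0% of those changed by 0.5.

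**Figure D2:**
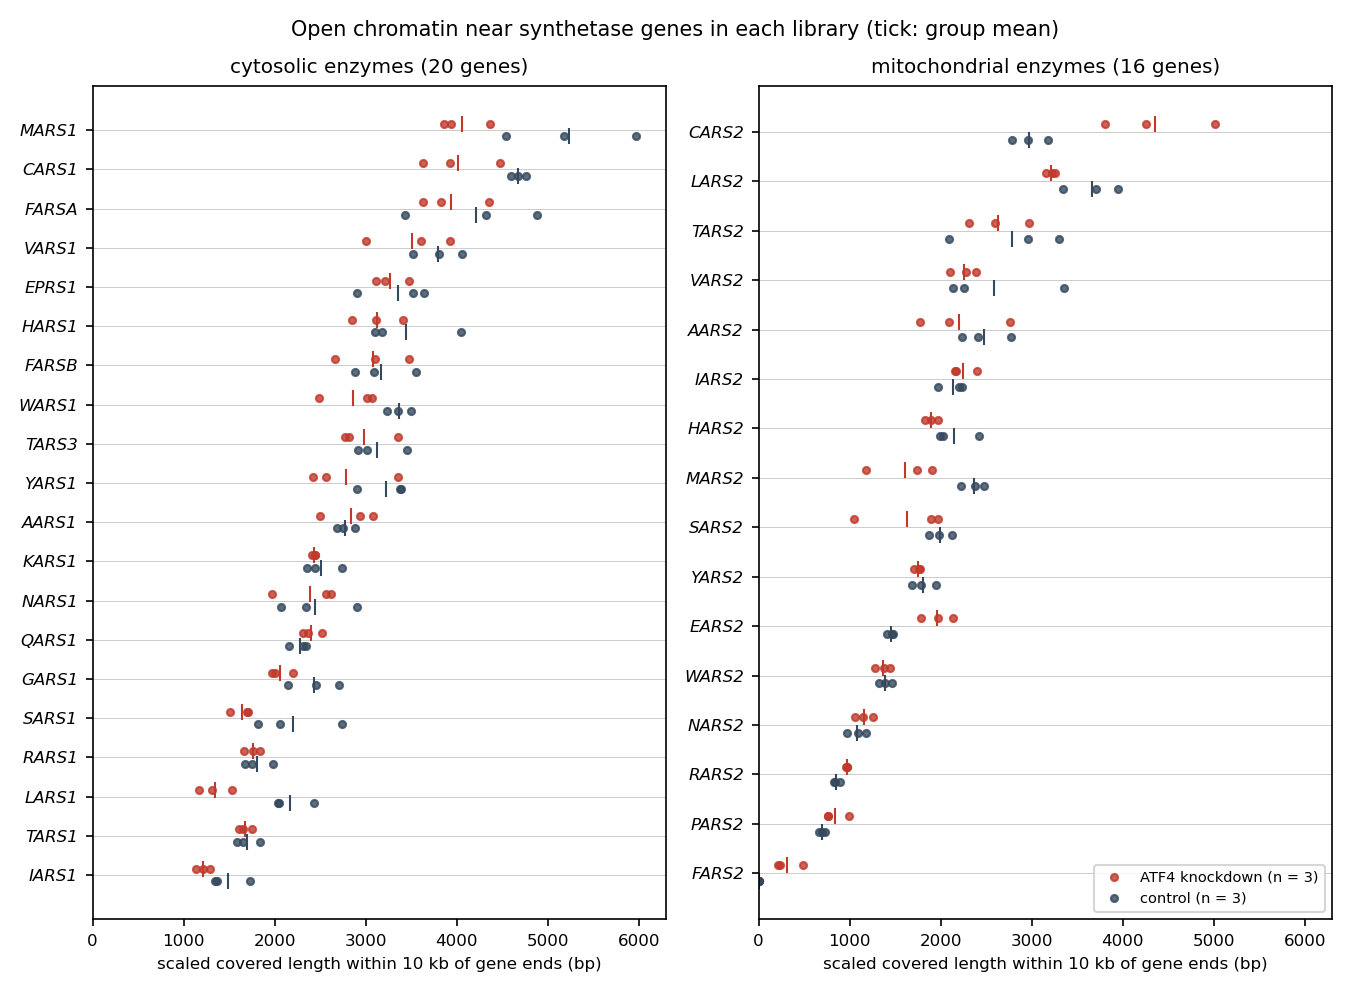
Scaled covered length in bp within 10 kb of gene ends (x axis) for the 20 cytosolic and 16 mitochondrial genes, with knockdown libraries above control libraries in each row and a tick at each group mean. LARS1 lies at 1172 to 1532 bp in knockdown libraries and 2036 to 2438 bp in control libraries, and CARS2 at 3809 to 5018 bp in knockdown libraries and 2782 to 3178 bp in control libraries.

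LARS1 had the lowest difference of all 36 genes. It charges leucine within the multisynthetase complex and is also known as a leucine sensor for mTORC1. The gene lies at chr5:146113034-146182650 (hg38). Its covered length was 1315, 1172 and 1532 bp in knockdown libraries and 2046, 2438 and 2036 bp in control libraries, with no overlap. The log2 difference was −0.63 ± 0.13 (SE, limma, n = 3 each), with an adjusted p of 0.108.

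The lower value of LARS1 lay away from its strongest region. The region over the gene end at chr5:146182207-146183216 spanned, unscaled like all lengths of single regions here unless stated, 873, 953 and 977 bp in knockdown libraries and 918, 931 and 870 bp in control libraries. Outside it, the scaled covered length was 403, 167 and 517 bp in knockdown libraries and 1183, 1558 and 1174 bp in control libraries. A region outside the gene at chr5:146106107-146106802, 6232 bp from the other end of LARS1 and 530 bp from PLAC8L1, was covered for 182 bp in 1 knockdown library, was not listed in the other two, and was covered for 614, 516 and 557 bp in control libraries. Another at chr5:146111437-146111767, 1267 bp outside LARS1, was listed in no knockdown library and in 2 control libraries. A region inside LARS1, chr5:146173557-146174123, was found in both groups with an overlapping −log10 q, of 2.20, 2.76 and 9.19 in knockdown libraries and 14.53, 33.58 and 8.42 in control libraries.

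MARS1, at chr12:57488068-57516652 on the plus strand, had the highest covered length of the cytosolic genes, 4364, 3866 and 3942 bp in knockdown libraries and 5184, 4539 and 5971 bp in control libraries. The groups did not overlap, and the log2 difference was −0.34 ± 0.10 (SE, limma, n = 3 each; adjusted p 0.193). Its start region, chr12:57487540-57489205, was covered for 855, 1224 and 1162 bp in knockdown libraries and 1493, 1399 and 1648 bp in control libraries, so the called region was narrower in every knockdown library. The windows of MARS1 also take in the neighbour DDIT3, the stress factor CHOP, whose 3′ end lies 64 bp from that of MARS1. A region over the starts of DDIT3 and MBD6 at chr12:57519539-57521127 was covered for 1136, 1149 and 1174 bp in knockdown libraries and 1565, 1487 and 1556 bp in control libraries. Part of the MARS1 value thus lies nearer to other genes.

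CARS1, at chr11:3000929-3057423 on the minus strand, was covered for 3633, 3930 and 4480 bp in knockdown libraries and 4602, 4670 and 4757 bp in control libraries, a log2 difference of −0.22 ± 0.08 (SE, limma, n = 3 each; adjusted p 0.282). The groups did not overlap. Its start region covered 839, 1025 and 1002 scaled bp in knockdown libraries and 821, 795 and 947 bp in control libraries, and the lower value lay in the rest of the windows. A region inside the gene at chr11:3009542-3010249 was covered for 235 and 151 bp in 2 knockdown libraries, not at all in the other one, and for 708, 608 and 643 bp in control libraries. A region 527 bp inside the start, chr11:3056479-3056896, had a −log10 q of 1.84 and 1.81 in the 2 knockdown libraries that listed it and of 4.24, 7.26 and 8.26 in control libraries.

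SARS1, which charges serine and also the transfer RNA of selenocysteine, was covered for 1510, 1706 and 1694 bp in knockdown libraries and 2056, 1819 and 2738 bp in control libraries. The difference was −0.37 ± 0.15 (SE, limma, n = 3 each; adjusted p 0.302), with no overlap. Beyond its start region it kept 330, 328 and 316 bp in knockdown libraries and 589, 484 and 1153 bp in control libraries. WARS1 was covered for 3069, 2492 and 3014 bp in knockdown libraries and 3361, 3494 and 3234 bp in control libraries (−0.23 ± 0.09, SE, limma, n = 3 each; adjusted p 0.333). Its start region, shared with WDR25 whose start lies 158 bp away, was covered for 1297, 1127 and 1228 bp in knockdown libraries and 1519, 1538 and 1538 bp in control libraries. Every knockdown value lay below every control value there.

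IARS1, the cytosolic gene with the least covered DNA, had 1292, 1217 and 1139 bp in knockdown libraries and 1727, 1372 and 1349 bp in control libraries. Its groups did not overlap, but its limma p was above 0.05 before adjustment (−0.24 ± 0.13, SE, n = 3 each; adjusted p 0.448). TARS1 had 1608, 1753 and 1651 bp in knockdown libraries and 1584, 1651 and 1843 bp in control libraries, with a difference of −0.02 and overlapping groups. FARSA, the alpha subunit of the phenylalanine enzyme, had 4357, 3625 and 3829 bp in knockdown libraries and 4319, 3436 and 4886 bp in control libraries. Around FARSA the strongest region within the windows lay over the start of the chaperone gene CALR, 4898 bp from the FARSA start.

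GARS1 and KARS1, the genes that serve both compartments, gave different values. GARS1 was covered for 1968, 2009 and 2199 bp in knockdown libraries and 2702, 2458 and 2143 bp in control libraries (−0.22 ± 0.11, SE, limma, n = 3 each; adjusted p 0.414), so 1 knockdown library lay above 1 control library. A region just inside the gene, chr7:30596029-30596280, had a −log10 q of 8.78 in 1 knockdown library, no listed peak in the other two, and a −log10 q of 35.75, 17.64 and 16.42 in control libraries. KARS1, which charges lysine, was covered for 2439, 2414 and 2440 bp in knockdown libraries and 2446, 2353 and 2735 bp in control libraries, a difference of −0.04 with overlapping groups. Whether the 2 genes differ from each other was not tested.

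In the other cytosolic genes the groups overlapped. HARS1 had 3118, 2852 and 3411 bp in knockdown libraries and 3182, 3107 and 4045 bp in control libraries, a difference of −0.13. TARS3, a second cytosolic threonine enzyme, had 2773, 2820 and 3359 bp in knockdown libraries and 2914, 3014 and 3459 bp in control libraries, a difference of −0.07. FARSB, the beta subunit of the phenylalanine enzyme, had 3106, 3479 and 2662 bp in knockdown libraries and 2878, 3089 and 3551 bp in control libraries, a difference of −0.04. Among the remaining 7 cytosolic genes, QARS1 (glutamine, 0.07) and AARS1 (0.03) were the only 2 above 0 and YARS1 (tyrosine) was lowest at −0.21.

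**Figure D3:**
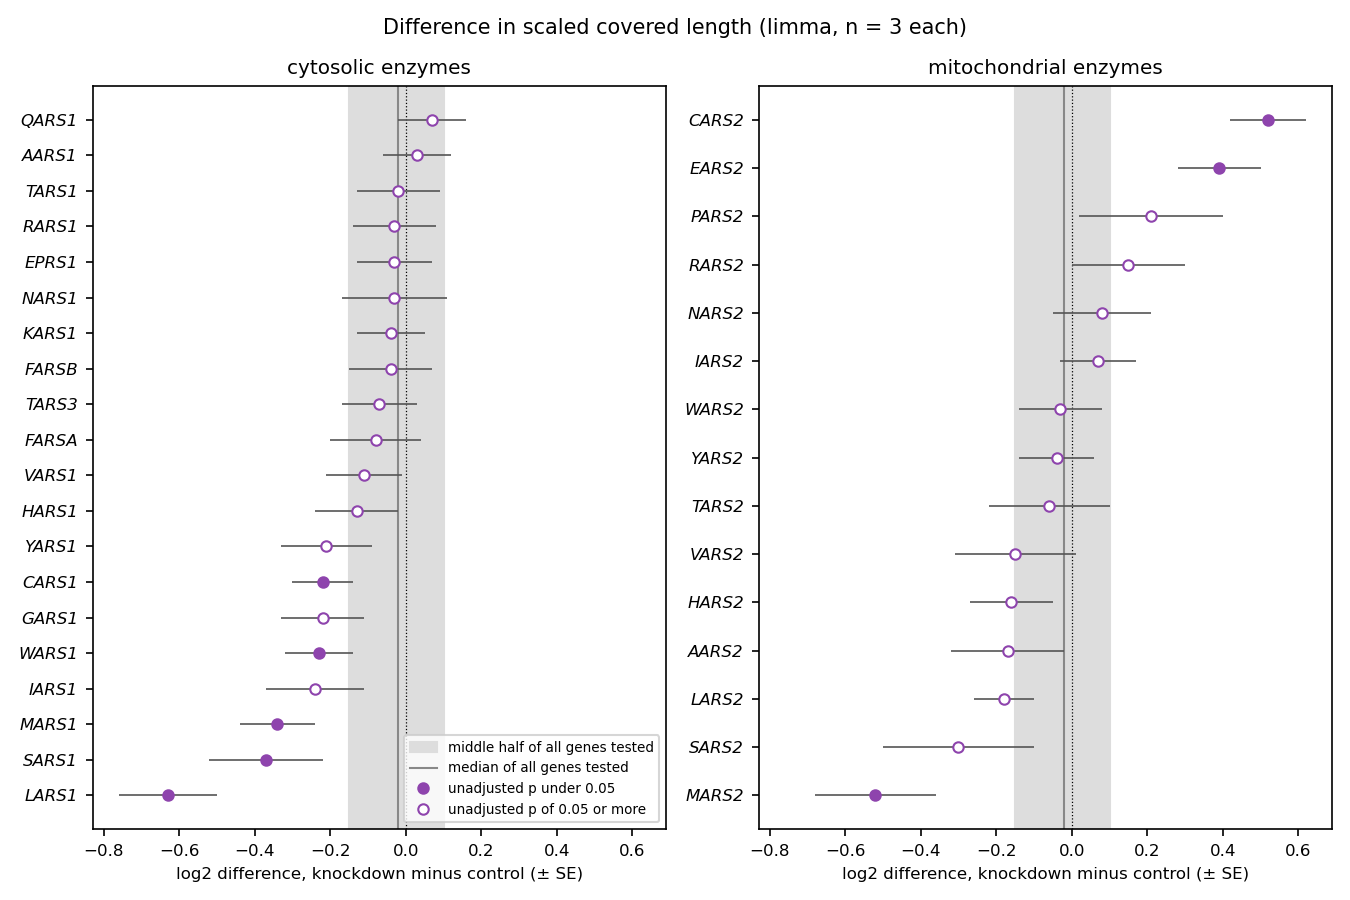
Log2 difference in scaled covered length, knockdown minus control, with its SE from limma (x axis) for each gene, filled where the unadjusted p was under 0.05. The grey band is the interquartile range of all genes tested, −0.15 to 0.10, and the grey line their median, −0.02. The filled points are LARS1, SARS1, MARS1, WARS1 and CARS1, left of the band, among the cytosolic genes, and MARS2, left of it, with CARS2 and EARS2, right of it, among the mitochondrial genes. FARS2 is left out because it was listed at 0 in all control libraries.

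Among the mitochondrial genes with a value in both groups, CARS2 had the highest difference in covered DNA. The gene of this cysteine enzyme, at chr13:110641410-110713522 on the minus strand, was covered for 5018, 3809 and 4254 bp in knockdown libraries and 2965, 2782 and 3178 bp in control libraries, with no overlap (0.52 ± 0.10, SE, limma, n = 3 each; adjusted p 0.108). Much of the higher value lay in a region outside the gene at chr13:110714476-110715941, 954 bp from its annotated 5′ end. The mapped CARS2 starts lie inside the gene, the nearest 7961 bp from this region. It was covered for 1459, 1255 and 1020 bp in knockdown libraries and 678, 652 and 652 bp in control libraries. The −log10 q of that region was nevertheless lower in knockdown libraries, at 117.32, 122.36 and 138.04, than in control libraries, at 248.86, 278.90 and 278.58. So the called region was wider in knockdown libraries while its score was lower. The start of ING1, a chromatin regulator, is 899 bp from the CARS2 end and lies in a separate region, chr13:110712326-110713688.

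EARS2, which charges glutamate in mitochondria, was covered for 1782, 2139 and 1972 bp in knockdown libraries and 1412, 1461 and 1477 bp in control libraries. The groups did not overlap, with a difference of 0.39 ± 0.11 (SE, limma, n = 3 each; adjusted p 0.181). Its start region, shared with UBFD1, covered 1180, 1288 and 1195 scaled bp in knockdown libraries and 1190, 1086 and 1311 bp in control libraries. Outside it the scaled length was 603, 851 and 778 bp in knockdown libraries and 222, 375 and 165 bp in control libraries. That length held small regions such as chr16:23514837-23515071, 5683 bp outside the 3′ end, with a −log10 q of 4.19 and 3.72 in 2 knockdown libraries and no listed peak in the other one or in the control libraries. FARS2 was covered for 486, 234 and 210 bp in knockdown libraries and was listed at 0 in all control libraries, with no knockdown peak above a −log10 q of 2.20 in its windows.

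MARS2, which charges methionine in mitochondria, had the lowest difference of its class. The gene, at chr2:197705369-197708395 on the plus strand, was covered for 1181, 1742 and 1904 bp in knockdown libraries and 2381, 2480 and 2225 bp in control libraries, with no overlap (−0.52 ± 0.16, SE, limma, n = 3 each; adjusted p 0.203). The region over its start, whose sequence is given above, was covered for 1130, 1142 and 1150 bp in knockdown libraries and 1126, 1334 and 1138 bp in control libraries. Outside it, the scaled length was 0, 538 and 708 bp in knockdown libraries and 1323, 1220 and 1098 bp in control libraries. A region at chr2:197710513-197710765, 2118 bp outside the 3′ end, had a −log10 q of 5.25 in 1 knockdown library, no listed peak in the other two, and a −log10 q of 25.43, 25.12 and 16.59 in control libraries.

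HARS2 was covered for 1893, 1972 and 1832 bp in knockdown libraries and 2023, 1999 and 2422 bp in control libraries, so its groups did not overlap, with a difference of −0.16 (adjusted p 0.555, limma). The start region it shares with HARS1, chr5:140690569-140691915, was covered for 1208, 1081 and 1138 bp in knockdown libraries and 1282, 1255 and 1337 bp in control libraries. Scaled, that region overlapped between the groups, at 1262, 1140 and 1183 bp in knockdown libraries and 1204, 1186 and 1324 bp in control libraries. LARS2 (leucine) had 3226, 3261 and 3161 bp in knockdown libraries and 3712, 3340 and 3946 bp in control libraries, a difference of −0.18 with no overlap (adjusted p 0.372, limma). TARS2 (threonine) had 2599, 2972 and 2312 bp in knockdown libraries and 2965, 2094 and 3298 bp in control libraries, overlapping at −0.06. PARS2 (proline) had 993, 766 and 759 bp in knockdown libraries and 663, 692 and 732 bp in control libraries, at 0.21. RARS2 (arginine) had 976, 967 and 955 bp in knockdown libraries and 843, 824 and 895 bp in control libraries, at 0.15. The groups did not overlap in PARS2 (adjusted p 0.672, limma) or RARS2 (adjusted p 0.71, limma), and each had 1 region only, over its start. Unscaled, the PARS2 region did overlap between the groups, at 950, 726 and 730 bp in knockdown libraries and 706, 732 and 739 bp in control libraries. That of RARS2 did not, at 934, 917 and 919 bp in knockdown libraries and 898, 872 and 904 bp in control libraries. The remaining 7 mitochondrial genes lay between −0.30 (SARS2) and 0.08 (NARS2), with overlapping groups.

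**Figure D4:**
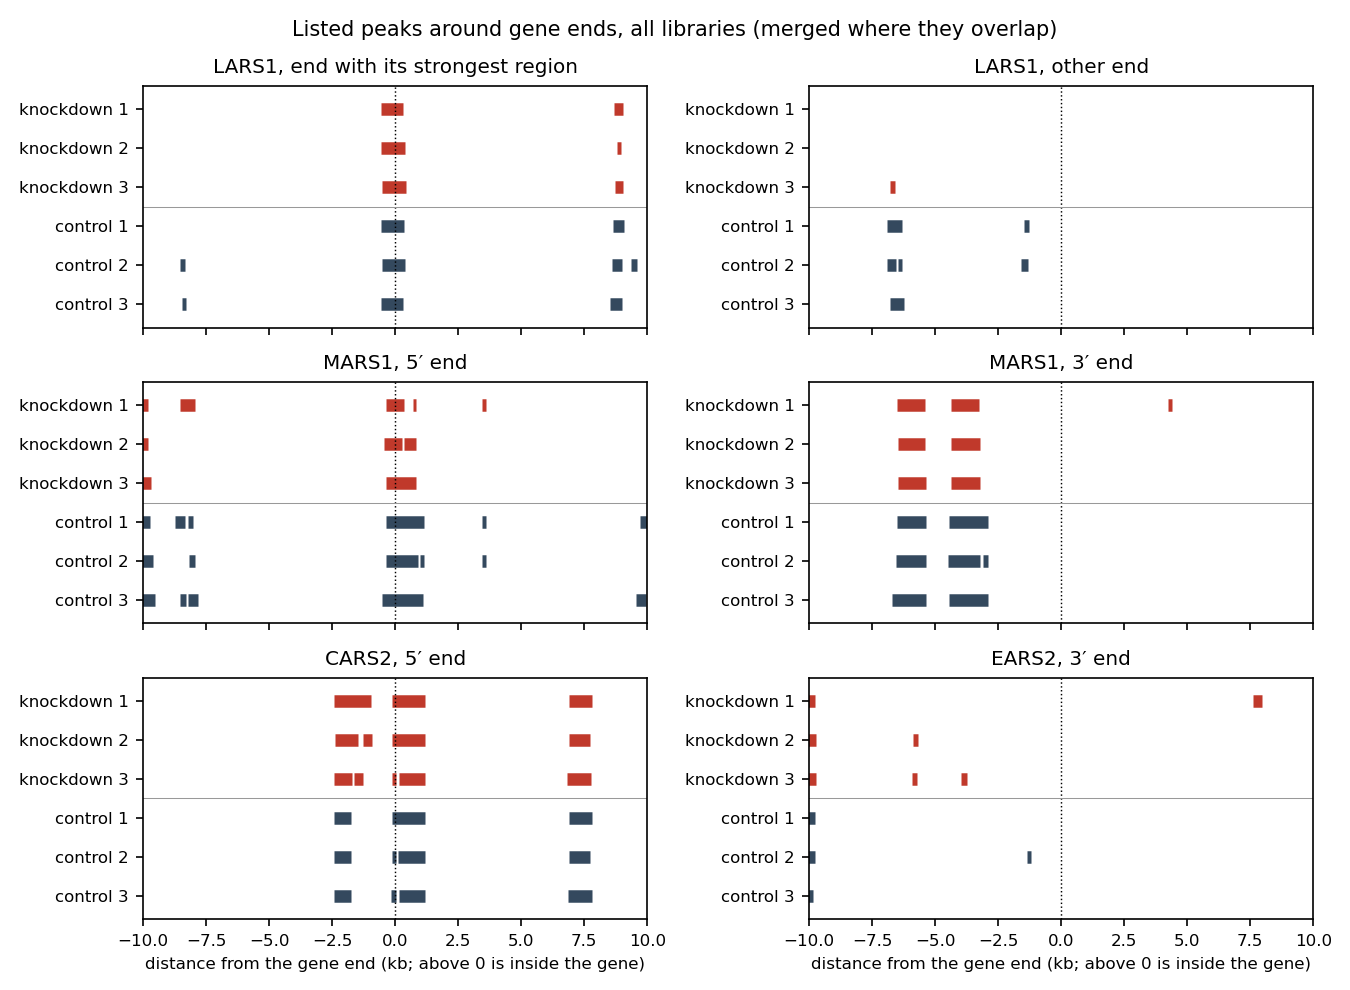
Listed peaks around both ends of LARS1 and MARS1, the annotated 5′ end of CARS2 and the 3′ end of EARS2, by distance from the gene end in kb (above 0 is inside the gene), with 3 knockdown libraries above 3 control libraries. Near LARS1 the peaks outside the strongest region are fewer in knockdown libraries, the region beyond the MARS1 3′ end is 1136 to 1174 bp in knockdown libraries and 1487 to 1565 bp in control libraries, and the outermost CARS2 region is wider in knockdown libraries.

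The cytosolic genes were also lower together outside their start regions. Regions over their starts, or over gene ends where no start was mapped, summed to 23.41, 25.72 and 24.39 kb in knockdown libraries and 24.53, 24.11 and 26.90 kb in control libraries, a difference of −2.7%. The rest of their windows summed to 29.15, 26.91 and 30.50 kb in knockdown libraries and 33.85, 32.77 and 36.03 kb in control libraries. That is 28.85 ± 1.81 kb against 34.22 ± 1.66 kb (SD, n = 3 each), a difference of −15.7%, with every knockdown library below every control library. The rest was lower in 16 of the 20 genes, with a median log2 difference of −0.20. The mitochondrial sums differed by 0.7% at starts and −0.7% elsewhere, with overlapping groups. Gene by gene the rest was lower in 10 of 15 mitochondrial genes, with a median of −0.14, and the sum holds the higher values of CARS2, 3395 bp in knockdown libraries and 2116 bp in control libraries, and of EARS2, 744 bp in knockdown libraries and 254 bp in control libraries. Over 10600 protein-coding genes with a region over a start the sums differed by 0.6% and −5.6%, and the rest was lower in 57.5% of genes, with a median of −0.04. Whether the 2 classes differ was not tested. Some of this DNA lies nearer to other genes, since 26 of the 36 genes have another gene end within 10 kb of theirs. With peaks of a −log10 q under 5 left out, the cytosolic difference turned to 2.2%, where that of all genes was 4.1%.

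**Figure D5:**
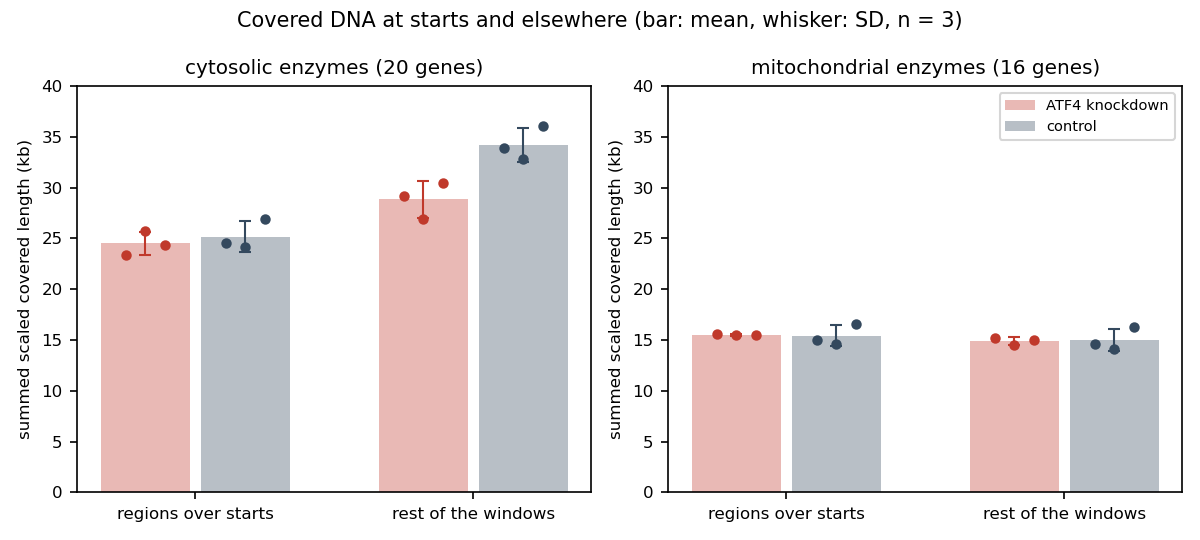
Summed scaled covered length in kb over regions at starts and over the rest of the 10 kb windows, for the 20 cytosolic and 16 mitochondrial genes. Bars are means of 3 libraries, whiskers the SD and points the libraries, with knockdown left of control. The rest of the cytosolic windows is 28.85 kb in knockdown libraries and 34.22 kb in control libraries, and the other 3 pairs overlap.

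Regions near cytosolic genes were seldom found in more knockdown than control libraries. The share found in more control libraries (34.7%) was close to that of all regions (34.4%) and above that of regions near any protein-coding gene end (30.1%). Peaks with a −log10 q of at least 2 were merged over all libraries, and 163 regions lay within 10 kb of a synthetase gene end, 101 near cytosolic and 64 near mitochondrial genes, 2 of them near both. All 6 libraries held 55 of the 101 cytosolic (54.5%) and 30 of the 64 mitochondrial regions (46.9%). They held 28.7% of 216003 regions in all, but those include regions far from any gene. The share for regions near gene ends is not given, so these shares are not read as a result about the family. Of the cytosolic regions 9 (8.9%) were found in more knockdown than control libraries and 35 (34.7%) in more control than knockdown libraries. Of the mitochondrial regions 16 were found in more knockdown libraries and 17 in more control libraries. Among 57169 regions near any protein-coding gene end 12549 were found in more knockdown libraries and 17234 in more control libraries. These counts move with depth, and whether the classes differ was not tested.

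Regions of 1 group were few. All knockdown libraries and no control library held 0 of the 163 regions, against 0.102% of all regions, and all control libraries alone held 2, or 1.227% against 1.5%. That count rests on single libraries: it was 10 without control replicate 3 (6.329% against 2.847% of all regions), 6 without knockdown replicate 3 (3.797% against 2.788%) and 4 without control replicate 1. The first, chr2:222656962-222657117, lies 870 bp upstream of FARSB, with no peak in knockdown libraries and a −log10 q of 5.88, 7.28 and 6.77 in control libraries. The other, chr15:101660120-101660477, lies inside TARS3, 6524 bp from an end, with a −log10 q of 2.70, 2.45 and 6.07. Both were weak beside the start regions of the same genes, where the −log10 q was 96.66 to 110.82 in knockdown libraries and 164.00 to 185.58 in control libraries for FARSB.

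Groups within the family and its partners were described by the same measure, in lists chosen with earlier results of these data known. Over all genes tested the median difference was −0.02, with 54.9% lower. At an unadjusted limma p under 0.05, 9.08% of all genes were lower and 4.89% higher. The 12 synthetase genes usually listed as ATF4 targets had a median difference of −0.22, with 11 of 12 lower and 5 at an unadjusted p under 0.05. The 8 other cytosolic genes had a median of −0.05, with 7 of 8 lower and 0 at that p. The 8 genes with a C/EBP-ATF element had a median of −0.13, with 7 of 8 lower and 2 at that p, MARS1 and CARS1. Without the mitochondrial YARS2 (−0.04) the median of the 7 cytosolic ones was −0.22. LARS1 and SARS1 were lower by more than any of these 8, and SARS1 holds neither form of the element in its promoter sequence while LARS1 had none to search. The 7 enzymes of the multisynthetase complex had a median of −0.04, with 2 at that p, LARS1 and MARS1. With peaks of a −log10 q under 5 left out, CARS1, SARS1, IARS1, MARS1, GARS1 and TARS1 lay above 0, where the median of all genes was 0.19. Whether these groups differ from each other was not tested.

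The complex scaffold genes AIMP1, AIMP2 and EEF1E1 had a median of −0.03, with 2 of 3 lower and 0 at that p. Of 18 tRNA-linked partners 11 were lower (median −0.05), with 3 lower and 1 higher at that p. AARSD1 and GATB were chosen for display after their values were seen. AARSD1, an editing factor for mischarged tRNA, was covered for 1283, 1301 and 1488 bp in knockdown libraries and 1646, 1692 and 1746 bp in control libraries. GATB, a subunit of the amidotransferase that completes mitochondrial glutaminyl-tRNA after EARS2 has charged it, had 1812, 2437 and 2147 bp in knockdown libraries and 1642, 1511 and 1727 bp in control libraries. The other subunit genes of that enzyme had overlapping groups, GATC with a difference of −0.08 and QRSL1 with 0.13.

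Of 10 elongation factor genes 7 were lower (median −0.06), with 3 lower and 1 higher at that p. EEF1A2, which delivers charged tRNA to the ribosome, was also chosen after its values were seen. It had 1813, 1373 and 1383 bp in knockdown libraries and 3114, 2447 and 2373 bp in control libraries (−0.72 ± 0.14, SE, limma, n = 3 each, adjusted p 0.108). Of 13 ATF4 targets of other kinds 9 were lower (median −0.14), with 3 lower and 1 higher at that p. Their differences ran from −1.14 (ASNS, with overlapping groups and an adjusted p of 0.40, limma) to 0.99 (NUPR1). TRIB3 and NUPR1 are shown because of values already seen. The stress pseudokinase gene TRIB3 was covered for 4151, 3912 and 3459 bp in knockdown libraries and 5013, 3986 and 5138 bp in control libraries. Its difference was −0.28 with overlapping groups (adjusted p 0.30, limma). The stress-induced regulator NUPR1 went the other way, with 609, 864 and 984 bp in knockdown libraries and 282, 475 and 203 bp in control libraries, a difference of 0.99 with no overlap (adjusted p 0.20, limma). Plasma cell markers, listed as a check of cell identity, had a median of −0.14 with 9 of 10 lower. T and NK cell markers had a median of −0.25 with 5 of 5 lower, at a median covered length of 1332 bp in knockdown libraries and 1565 bp in control libraries. The part of either in the synthetase values was not tested.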

How the data were processed

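Peaks were called with MACS2 on hg38, 1 list per library, per the submitters' processing notes; its version and settings, the aligner and the read filters were not given in the sources used here. The deposited lists give, per summit, a fold enrichment (a ratio to local background), −log10 p and q values and a capped score that repeats the −log10 p and was not analysed. Fold and q rise with depth, so they served only for description, ranking and filtering inside each list. Pileups were solved from both deposited values for 100% of summits, within 0.01 on the −log10 scale. Gene ends and promoters came from RefSeq on GRCh38.p14, of the same build as hg38.

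Peaks were merged per library, bases within 10 kb of either gene end were summed and scaled by the library's total, and genes with covered bases in 3 or more libraries entered the test on log2(bases + 200) with limma 3.58.1 in R 4.3.3 (trend and robust, Benjamini-Hochberg, threshold 0.05), after testing on simulated data. This scale understates changes of genes with little covered DNA. p-values measure the spread between 3 libraries per group. Members and lists were chosen with earlier results of these data known. Library values are given for genes with an unadjusted p under 0.05, the 3 highest and 3 lowest of each class, HARS1, HARS2, GARS1, KARS1, MARS1, TARS3 and genes with a region of 1 group, and also for LARS2 and for 5 partner and target genes chosen after their values were seen. Start regions were set apart from the rest of the windows after the values were seen. Intervals are not given, since a peak list holds no read totals.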

Additional observations from a re-analysis of the deposited data

How the results depend on the processing

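The replicate numbers did not pair the libraries: same-numbered libraries deviated from their group means with correlations of 0.016, 0.001 and 0.025, and with the replicate number as a block limma called 0 genes and 0 synthetase genes, as without the block. Under the other settings limma called 76 genes (without trend and robust), 2 (2 kb windows), 811 (50 kb), 693 (no scaling), 1 (−log10 q of at least 2), 5830 (at least 5) and 6 (pseudocount 1000 bp), against 0. Of the 36 genes it called 1 with 50 kb (LARS1, −0.49, adjusted p 0.0289), 2 with no scaling (LARS1, −0.74, adjusted p 0.0399; MARS1, −0.47, adjusted p 0.0435) and 12 with a −log10 q of at least 5, all higher. These calls stand beside the 811, 693 and 5830 genes called in all at those settings, so they are not particular to the family. Without scaling the median of all genes was −0.14 and with a −log10 q of at least 5 it was 0.19. The cytosolic median was −0.22, 0.01 and 0.16 with no scaling, a −log10 q of at least 2 and of at least 5, which is −0.08, −0.06 and −0.04 relative to all genes. The mitochondrial median was −0.15, 0.12 and 0.27, or −0.01, 0.04 and 0.08 relative to all genes, and 0.09 with lists of equal length and 0.07 with the start end only. Genes lower without overlap numbered 16, 2, 0, 3 and 5 with no scaling, a −log10 q of at least 2, of at least 5, equal lists and the start end only, against 9. Genes higher without overlap numbered 3, 2, 10, 16 and 3 with 2 kb, 50 kb, a −log10 q of at least 2, of at least 5 and the start end only, against 5. The shares over all genes at these settings are not given, so these numbers are not read as a result about the family. Control-only regions numbered 1 when presence needed a −log10 q of at least 5.

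Covered DNA outside start regions, under settings chosen after seeing the data, changed by −22.7%, −10.4% and 2.2% (cytosolic) and −9.0%, 11.9% and 13.8% (mitochondrial) with no scaling, a −log10 q of at least 2 and of at least 5. Leaving out 1 library at a time gave −18.1% to −12.8% and −3.5% to 3.7%. It gave cytosolic medians of −0.17 to −0.06 and mitochondrial ones of −0.04 to 0.03, 0 calls, 9 to 13 genes lower and 4 to 5 higher without overlap, 2 to 10 control-only regions (10 without control replicate 3, 6 without knockdown replicate 3, 4 without control replicate 1) and 0 to 1 knockdown-only regions. The shares over all genes for these non-overlap counts are not given either.

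Of 22 named genes CARS2, FARS2, LARS1 and LARS2 kept their sign under every setting that gave a value. With 2 kb the sign turned for KARS1 (0.02), TARS1 (0.06), TARS3 (0.05) and EARS2 (−0.03). With 50 kb it turned for IARS1 (0.15), KARS1 (0.11), TARS1 (0.33), WARS1 (0.12), PARS2 (−0.27), RARS2 (−0.24) and TARS2 (0.18). With a −log10 q of at least 2 it turned for FARSA (0.05), FARSB (0.05), HARS1 (0.01), KARS1 (0.08), TARS1 (0.18), TARS3 (0.06) and TARS2 (0.02). With at least 5 it turned for CARS1 (0.02), FARSA (0.09), FARSB (0.26), GARS1 (0.22), HARS1 (0.19), IARS1 (0.08), KARS1 (0.24), MARS1 (0.09), SARS1 (0.04), TARS1 (0.34), TARS3 (0.28), HARS2 (0.16), MARS2 (0.03) and TARS2 (0.13). With equal lists it turned for FARSB (0.03), KARS1 (0.02), TARS1 (0.08) and TARS3 (0.01), and with the start end only for FARSA (0.06), KARS1 (0.08), TARS1 (0.03) and TARS2 (0.07). Leaving out 1 library turned TARS1 (−0.06 to 0.04), FARSB (−0.13 to 0.05), TARS2 (−0.24 to 0.06), FARSA (−0.22 to 0.03) and KARS1 (−0.08 to 0.02). Except where a setting removes weak peaks or changes the windows by construction, the cause was not tested. With a background pileup of 2.15 to 2.51 in knockdown libraries and 2.79 to 3.52 in control libraries, a region missing from a list was not detectable at that depth, which does not show that it was closed.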
